A study of Rattus norvegicus with 18 samples.

Results

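The transcripts described here code for proteins that themselves bind and splice RNA. They are the entries of the deposited table whose gene symbol begins with Hnrnp, Srsf, Khdrbs, Pcbp, Ptbp or Elavl followed by the family's usual letter or number, or is Tra2a or Tra2b, leaving out Hnrnph1 and Hnrnpf. The rule used names only and found 41 entries of 35 genes among 13416 entries. They comprise 18 hnRNP entries, 13 SR and SR-like entries, 4 Pcbp entries, 3 Ptbp entries, 2 Khdrbs entries and the single Elavl1 entry. Hnrnpk has no entry and was not analysed here.

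RNA was sequenced from axoplasm, the cytoplasm pressed out of axons, of the proximal sciatic nerve of SD rats 7 days after a crush of that nerve. In 5 groups, RNA was precipitated together with a protein (RIP, RNA immunoprecipitation) by an antibody against FLAG, La/SSB, hnRNP K, hnRNP F or hnRNP H1, and the sixth group, Input, is axoplasm RNA without precipitation. FLAG is an artificial tag and serves as the antibody control. Each group has 3 libraries, 18 in all, and every group, controls included, comes from crushed nerve. The labels do not say whether a group's libraries come from different rats. Each p-value therefore reflects only how far these libraries spread, which may be technical.

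hnRNP proteins coat RNA as it is transcribed and take part in its splicing, export, transport and translation, and several shuttle between nucleus and cytoplasm. SR proteins bind exons and promote their splicing, often in opposition to hnRNP proteins. Many genes of both families regulate their own transcripts through alternative exons and RNA decay. hnRNP H1 and hnRNP F are close relatives that bind runs of G, whereas hnRNP K binds runs of C through KH domains, as do the Pcbp proteins. La/SSB binds the 3′ ends of RNAs made by RNA polymerase III and some mRNAs. In axons, hnRNP and related proteins accompany mRNAs that are translated away from the cell body.

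Read totals were 4610750 to 16754262 per library, so 3 reads correspond to 0.179 to 0.651 counts per 1000000 reads (CPM). Between the libraries of a group, the median SD of log2 CPM over the 41 entries was 0.33 to 0.51 in Input and the 4 specific RIPs and 0.68 in FLAG RIP. Markers of other cells were present throughout: the summed reads of 6 fibroblast and perineurium genes were 11.98 to 21.27% of all reads in hnRNP K RIP and 1.55 to 2.53% in FLAG RIP. The same sum was 4.72 to 9.43% in Input, 7.998 to 12.03% in hnRNP H1 RIP, 6.16 to 9.87% in hnRNP F RIP and 5.09 to 7.60% in La/SSB RIP. The 9 measured neuron and axon genes of 11 listed held 0.101 to 0.127% of Input reads and 0.0942 to 0.239% in the RIPs. The 8 Schwann cell genes held 0.284 to 0.355% in Input, 0.392 to 0.463% in hnRNP K RIP and 0.121 to 0.267% in hnRNP H1 and hnRNP F RIPs. The 4 measured erythrocyte genes of 5 listed held 0.753 to 2.25% in FLAG RIP, 0.403 to 0.928% in Input, 0.284 to 0.541% in La/SSB RIP, 0.167 to 0.226% in hnRNP K RIP and 0.031 to 0.113% in hnRNP H1 and hnRNP F RIPs. The 4 measured macrophage and leukocyte genes of 7 held 0.341 to 0.490% in FLAG RIP, 0.490 to 0.601% in Input, 0.361 to 0.706% in La/SSB RIP, 0.190 to 0.321% in hnRNP K RIP and 0.0589 to 0.164% in hnRNP H1 and hnRNP F RIPs. The 3 measured endothelial genes of 4 held 0.0398 to 0.0507% in hnRNP K RIP and 0.0031 to 0.0237% elsewhere, and the 3 measured skeletal muscle genes of 5 at most 0.155% in any library. No listed marker with an entry was at 0 in all 3 libraries of any group, and the part these markers have in the results below was not tested. In the RIPs these shares are of RNA recovered with an antibody and do not measure numbers of cells. In Input, which is bulk RNA, fewer cells of a type and less RNA per cell cannot be told apart.

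Together the 41 entries took a small share of each library, and that share was ordered by antibody. In Input they held 0.315, 0.321 and 0.341% of the reads, and in FLAG RIP 0.423, 0.413 and 0.417%. Higher shares were found with hnRNP H1, at 0.512, 0.591 and 0.627%, and with hnRNP F, at 0.573, 0.560 and 0.563%. hnRNP K RIP had 0.191, 0.223 and 0.230%, and La/SSB RIP 0.286, 0.277 and 0.339%. The hnRNP H1 and hnRNP F libraries all lay above the FLAG RIP libraries, and the hnRNP K libraries all lay below the libraries of every other group. The La/SSB and Input shares overlapped.

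**Figure D1:**
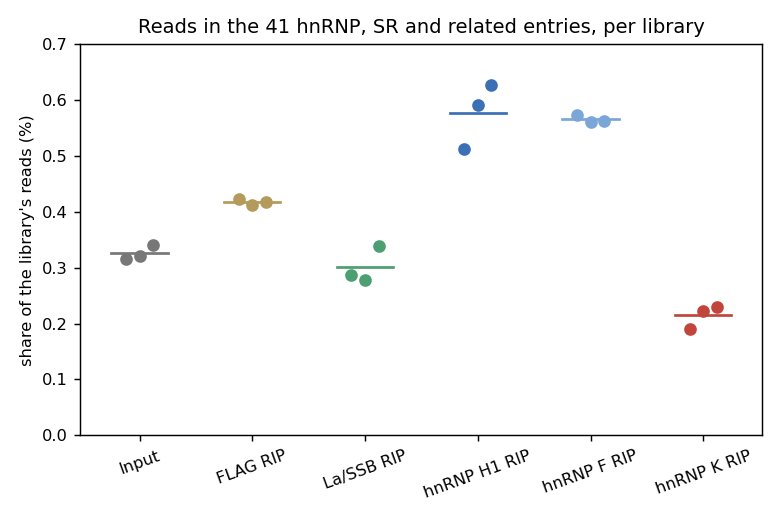
Share of each library's reads (%) in the 41 hnRNP, SR and related entries; points are libraries and lines are group means of 3. The hnRNP H1 and hnRNP F libraries sit between 0.512 and 0.627%, and the hnRNP K libraries between 0.191 and 0.230%.

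In Input, levels per length are compared by the deposited FPKM (fragments per kilobase, scaled to library size). Srsf2, coding for an SR protein that activates splicing and also known as SC35, was highest at 173 ± 46.2 FPKM (SD, n = 3). Srsf5 followed at 145, Srsf11 at 118, the 1465-base Pcbp2 entry at 110, the 1711-base Hnrnpa1 entry at 104 and Hnrnpul1 at 99.5 FPKM. For Srsf2 the 3 Input libraries spread from 120 to 205 FPKM, a range that covers the mean of Srsf5, so the order of these neighbours is within the spread.

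The direct comparison of hnRNP K RIP with the mean of hnRNP H1 RIP and hnRNP F RIP does not use the FLAG libraries. Of the 41 entries, 22 fell and 5 rose with hnRNP K in edgeR's quasi-likelihood test (Benjamini-Hochberg adjusted p under 0.05). Among all 13276 transcripts tested, 17.5% were lower and 16.6% higher in that comparison. The median log2 fold change of the members was -1.86, against -0.17 over all transcripts. The entries that fell were of 18 genes and those that rose of 4 genes. Entries of the same gene are counted separately throughout and may share reads. Among hnRNP entries 14 of 18 fell and 1 rose, and these 18 entries are of 13 genes. Among SR and SR-like entries 6 of 13 fell and 1 rose. Khdrbs1 and Ptbp3 fell, whereas both Pcbp2 entries and Elavl1 rose. Where a member's call was lower or higher, all 3 hnRNP K libraries lay below or above all 6 hnRNP H1 and hnRNP F libraries. How often this held among all called transcripts was not counted, so it adds nothing to the calls.

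**Figure D2:**
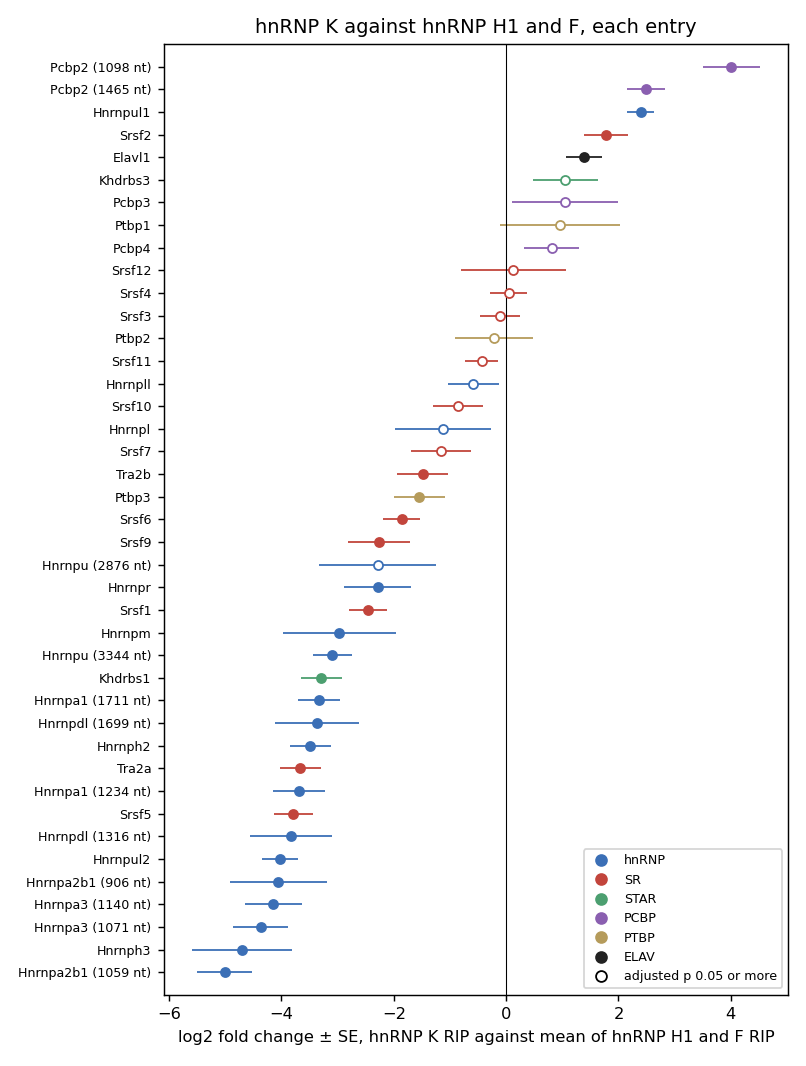
Log2 fold change of each entry in hnRNP K RIP against the mean of hnRNP H1 and hnRNP F RIPs, with SE bars and calls from edgeR's quasi-likelihood test at adjusted p under 0.05. The 1059-base Hnrnpa2b1 entry is lowest among entries with reads in hnRNP K RIP, at -5.01, and the 1098-base Pcbp2 entry is highest, at 4.01.

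Hnrnpa2b1, coding for a protein that binds mRNAs transported into cell processes, has entries of 1059 and 906 bases. The longer was at 246, 202 and 297 CPM with hnRNP H1 and at 177, 375 and 494 CPM with hnRNP F. With hnRNP K it was at 4.13, 15.7 and 6.70 CPM, against 96.4, 114 and 173 CPM in FLAG RIP, 39.4, 26.2 and 35.9 CPM in La/SSB RIP and 19.3, 27.7 and 30.2 CPM in Input. hnRNP K libraries were the lowest of all groups and hnRNP H1 and hnRNP F libraries the highest, without overlap. The log2 fold change of hnRNP K against the mean of the other antibodies was -5.01 ± 0.49 (SE, 3 libraries against 6, edgeR adjusted p = 2.89e-07). The 906-base entry had 0 reads in all 3 hnRNP K libraries, and its pooled CPM was at least 14.98-fold higher with hnRNP H1 and at least 21.5-fold higher with hnRNP F. These bounds set hnRNP K at 3 reads over its 3 libraries and cover counting error only.

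Hnrnpa3, a close relative of Hnrnpa1 and Hnrnpa2b1, has entries of 1071 and 1140 bases. The 1071-base entry was at 127, 137 and 225 CPM with hnRNP H1, at 144, 276 and 449 CPM with hnRNP F and at 4.22, 14.7 and 11.5 CPM with hnRNP K. The other was at 42.4, 59.4 and 101 CPM, at 77.5, 106 and 140 CPM and at 6.34, 4.21 and 3.23 CPM in the same order. Both sets of hnRNP K libraries were far below the others. Their log2 fold changes were -4.37 ± 0.49 (adjusted p = 1.19e-06) and -4.14 ± 0.50 (adjusted p = 3.31e-06) in the edgeR test. The table lists the 1071-base entry on chromosome 10 and RefSeq places the Hnrnpa3 gene on chromosome 3, so a near-identical copy may share its reads and its identity is uncertain.

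Hnrnph3, coding for a relative of hnRNP H1 and hnRNP F, was scarce. It had 9.28, 10.2 and 15.3 CPM with hnRNP H1, 11.3, 5.32 and 10.8 CPM with hnRNP F and 0.0918, 0.392 and 0.394 CPM with hnRNP K. The hnRNP K values correspond to a handful of reads, and the log2 fold change was -4.70 ± 0.89 (edgeR adjusted p = 0.000421). Its relative Hnrnph2 was at 119, 196 and 237 CPM with hnRNP H1, at 172, 178 and 231 CPM with hnRNP F and at 15.3, 17.4 and 16.3 CPM with hnRNP K. The hnRNP K libraries of Hnrnph2 stood together below the rest, with a log2 fold change of -3.48 ± 0.36 (adjusted p = 5.74e-07).

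Hnrnpul2, a relative of the scaffold protein hnRNP U, was at 1281, 1227 and 1564 CPM with hnRNP H1 and at 92.0, 90.5 and 55.3 CPM with hnRNP K. Its log2 fold change was -4.02 ± 0.32 (edgeR adjusted p = 2.58e-08). Hnrnpul1, of the same subfamily, did the opposite: it was at 94.4, 134 and 159 CPM with hnRNP H1, at 140, 193 and 112 CPM with hnRNP F and at 738, 698 and 694 CPM with hnRNP K. All 3 hnRNP K libraries were above the other 6, and the log2 fold change was 2.39 ± 0.24 (adjusted p = 3.2e-07). It was the only hnRNP entry that rose with hnRNP K in this comparison. Hnrnpa1, coding for a splicing repressor that shuttles to the cytoplasm, fell in both its entries, with log2 fold changes of -3.68 and -3.33. Both Hnrnpdl entries, the 3344-base Hnrnpu entry, Hnrnpm and Hnrnpr also fell, with log2 fold changes from -3.83 to -2.29.

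Among SR genes, Srsf5 was at 682, 522 and 615 CPM with hnRNP H1, 474, 320 and 576 CPM with hnRNP F and 33.7, 39.0 and 38.4 CPM with hnRNP K. Its log2 fold change was -3.79 ± 0.35 (edgeR adjusted p = 1.33e-07). Srsf2 went the other way, from 163, 74.7 and 52.0 CPM and 158, 164 and 87.3 CPM to 386, 405 and 366 CPM, a log2 fold change of 1.78 ± 0.39 (adjusted p = 0.00142). The hnRNP K libraries of Srsf5 were all lower and those of Srsf2 all higher than the other 6. Srsf1, coding for the founding SR protein that shuttles and also acts in translation, fell by 2.46 on the log2 scale. Tra2a and Tra2b, SR-like activators of exon inclusion, fell by 3.66 and 1.49 log2 units, Srsf9 by 2.27 and Srsf6 by 1.86. Srsf3, Srsf4, Srsf7, Srsf10, Srsf11 and Srsf12 did not pass the test, and Srsf7 came closest with a log2 fold change of -1.16 (adjusted p = 0.0993).

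Khdrbs1 codes for Sam68, a signal-responsive splicing regulator of the STAR family. It had 854, 1196 and 1229 CPM with hnRNP H1, 934, 518 and 927 CPM with hnRNP F and 88.8, 84.7 and 105 CPM with hnRNP K. The log2 fold change was -3.29 ± 0.37 (edgeR adjusted p = 1.21e-06). Its relative Khdrbs3 was at 4.68 to 36.6 CPM with the 3 antibodies and had a log2 fold change of 1.05 ± 0.58 that did not pass the test.

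The Pcbp genes code for KH-domain proteins that bind C-rich RNA and stabilise or silence mRNAs. The 1465-base Pcbp2 entry was at 277, 201 and 321 CPM with hnRNP K, against 61.4, 64.4 and 43.1 CPM with hnRNP H1 and 26.5, 27.7 and 74.3 CPM with hnRNP F. The 1098-base entry was at 73.3, 55.0 and 88.6 CPM with hnRNP K, 15.4, 7.71 and 6.87 CPM with hnRNP H1 and 2.48, 2.74 and 0.393 CPM with hnRNP F. Both entries were higher in every hnRNP K library, with log2 fold changes of 2.48 ± 0.34 (edgeR adjusted p = 1.21e-05) and 4.01 ± 0.51 (adjusted p = 5.97e-06). Pcbp4 had a log2 fold change of 0.81 ± 0.50 and was not called. Elavl1 codes for HuR, which stabilises mRNAs with AU-rich elements. It was at 226, 151 and 148 CPM with hnRNP K against 42.3 to 96.9 CPM in the 6 other libraries, a log2 fold change of 1.39 ± 0.32 (adjusted p = 0.00257).

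**Figure D3:**
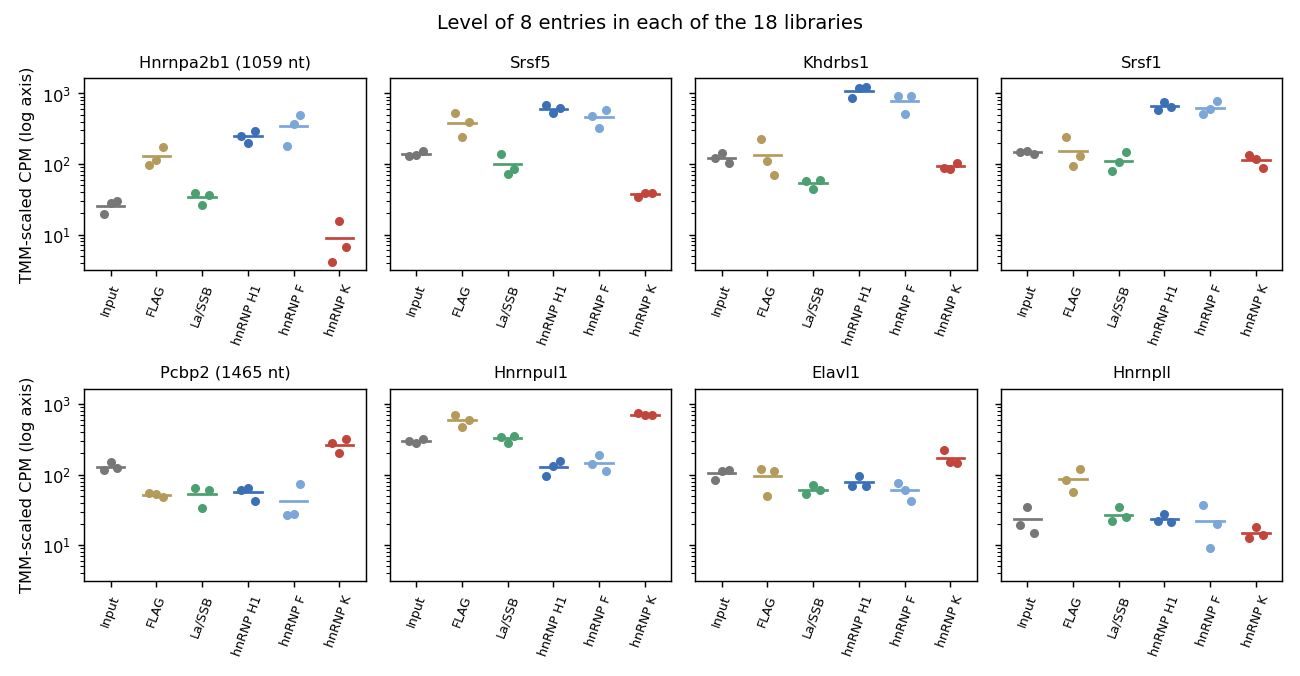
TMM-scaled CPM on a log axis of 8 entries in each of the 18 libraries; points are libraries and lines are group means of 3. In hnRNP K RIP the 1059-base Hnrnpa2b1 entry is at 4.13 to 15.7 CPM and Hnrnpul1 at 694 to 738 CPM.

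Among the entries that fell, 3 calls rested on single hnRNP K libraries in the same edgeR test. Hnrnpm lost its call without hnRNP K RIP 1, 2 or 3 (adjusted p = 0.0937, 0.0523 and 0.123), Tra2b without 1 or 3 (0.0902 and 0.0704), and Ptbp3 without 1 (0.0522).

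The promoters of 4 genes that moved in opposite directions with hnRNP K are shown to let their starts be compared. RefSeq promoters on GRCr8 were matched for 29 of the 35 genes, in 31 promoter rows. Printed are the 100 bases before the start, 5′ to 3′ on the gene's strand, with 3 motifs in capitals, read on either strand. The CCAAT box is searched as CCAAT. The GC box is searched as GGGCGG. The TATA box is searched as TATAAA. Hnrnpa2b1 lies at chr4:81875887-81875986 on the minus strand and Srsf5 at chr6:106336656-106336755 on the plus strand, and both fell. Pcbp2 lies at chr7:135483801-135483900 on the plus strand and Elavl1 at chr12:7482626-7482725 on the minus strand, and both rose.
Hnrnpa2b1: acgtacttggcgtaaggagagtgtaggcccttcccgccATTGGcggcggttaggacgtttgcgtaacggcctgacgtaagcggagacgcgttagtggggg
Srsf5: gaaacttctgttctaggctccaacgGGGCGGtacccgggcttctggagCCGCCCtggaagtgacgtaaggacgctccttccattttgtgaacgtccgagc
Pcbp2: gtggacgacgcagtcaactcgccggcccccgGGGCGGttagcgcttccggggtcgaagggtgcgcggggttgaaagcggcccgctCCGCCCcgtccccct
Elavl1: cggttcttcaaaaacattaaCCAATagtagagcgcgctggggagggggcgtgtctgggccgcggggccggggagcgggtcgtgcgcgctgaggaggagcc

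Over the 250 bases before the start, GGGCGG on either strand was present in 22 of 31 member promoters (71%) and in 30.5% of all 33469 promoters. CCAAT on either strand was present in 18 of 31 (58.1%) against 34%, and TATAAA in 12.9% of both. The median GC content of the 250 bases was 65.6% in members and 51.2% over all. By the direction of the hnRNP K comparison, GGGCGG was present in 12 of 17 promoters of entries that fell and 3 of 4 of those that rose, and CCAAT in 10 of 17 and 3 of 4. In the first 50 transcribed bases, GGG was present in 64.5% of member promoters and 55.5% of all, and CCC in 45.2% and 47.4%. These are matches of letters, and no motif searched before the start contains another. The entries that fell had a median length of 1705 bases (906 to 5086), those that rose 1901 bases (1098 to 3746) and the others 2037 bases (1051 to 2889).

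Against FLAG RIP, 13 entries rose and 7 fell with hnRNP H1 in edgeR's quasi-likelihood test, where 18.3% of all transcripts were higher and 21.2% lower. The members' median log2 fold change was 0.54, against -0.27 over all transcripts. With hnRNP F, 15 rose and 6 fell, where 16.6% of all were higher and 17.1% lower, with a member median of 0.83 against -0.21. All comparisons with FLAG RIP share the same 3 control libraries. Of the 18 hnRNP entries, 8 rose and 2 fell with hnRNP H1, and 10 rose and 2 fell with hnRNP F. Of the 13 SR and SR-like entries, 3 rose and 4 fell with hnRNP H1, and 4 rose and 2 fell with hnRNP F. With total counts as the scale, 9 were higher and 8 lower with hnRNP H1 and 11 and 7 with hnRNP F. Of all 13276 transcripts, 2015 were then higher and 3581 lower with hnRNP H1, and 1738 and 2958 with hnRNP F. The median of all transcripts was -0.61 and -0.54.

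**Figure D4:**
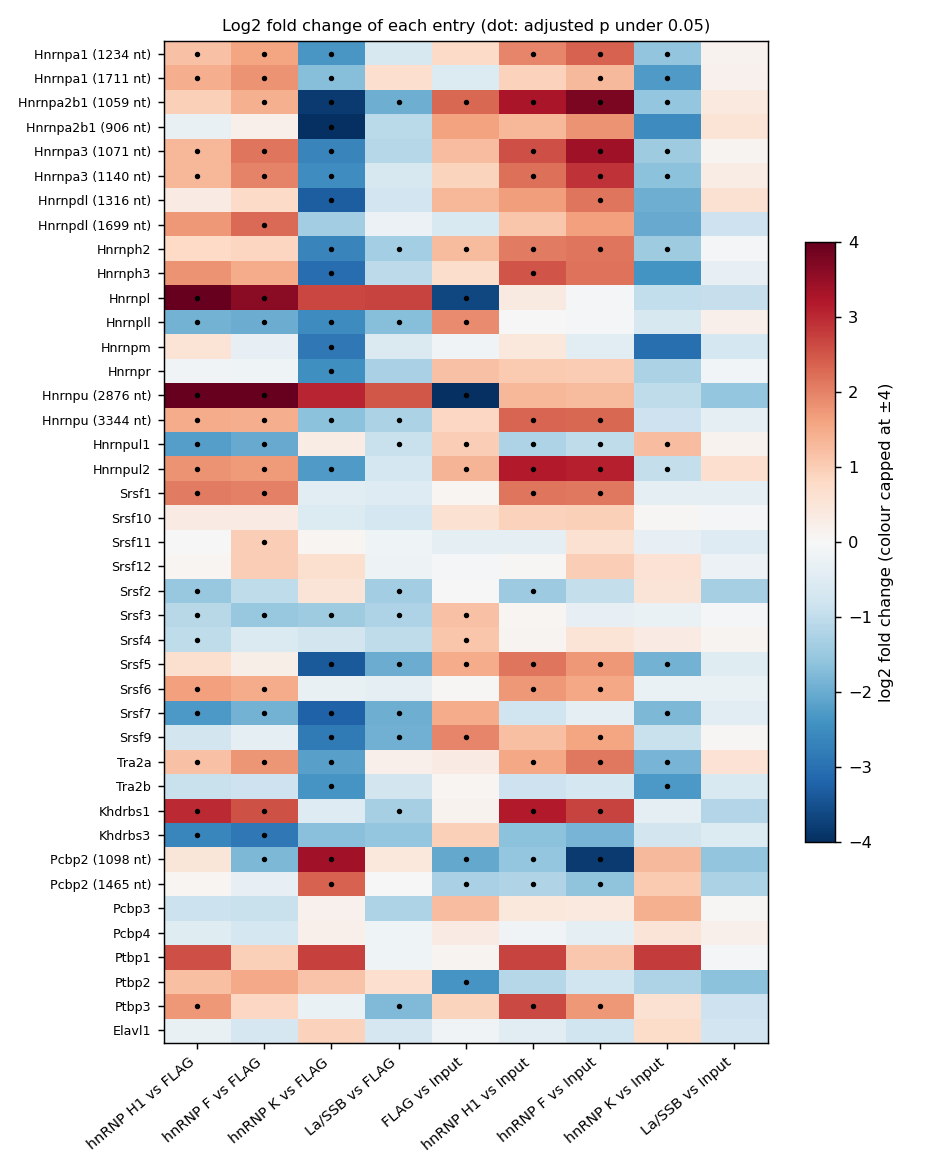
Fitted log2 fold changes of the 41 entries (rows, by family) in 9 comparisons (columns), with colour capped at 4 units either way and a dot where edgeR's adjusted p was under 0.05. Against FLAG RIP, dots mark 14 of 18 hnRNP entries as lower with hnRNP K, and 8 and 10 as higher with hnRNP H1 and hnRNP F; these columns share the FLAG libraries.

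Khdrbs1 was at 223, 112 and 70.7 CPM in FLAG RIP, below all 6 hnRNP H1 and hnRNP F libraries, and rose with log2 fold changes of 3.00 ± 0.38 (edgeR adjusted p = 1.31e-05) and 2.53 ± 0.38 (adjusted p = 7.96e-05). Srsf1 was at 239, 94.3 and 129 CPM in FLAG RIP, 582, 748 and 636 CPM with hnRNP H1 and 512, 612 and 773 CPM with hnRNP F, with log2 fold changes of 2.07 ± 0.35 and 2.01 ± 0.35. The 3 FLAG libraries were lower than every hnRNP H1 and hnRNP F library in both genes. The 1071-base Hnrnpa3 entry rose by 2.15 ± 0.46 log2 units with hnRNP F (adjusted p = 0.00176), from 56.7, 75.4 and 60.0 CPM. The 1699-base Hnrnpdl entry was at 3.75, 3.82 and 2.18 CPM in FLAG RIP and 15.7, 9.51 and 22.6 CPM with hnRNP F, a log2 fold change of 2.25 ± 0.75 (adjusted p = 0.0271). Hnrnpdl codes for a relative of the AU-rich binding protein AUF1.

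Hnrnpl, coding for a protein that binds CA repeats, had 0 reads in all 3 FLAG libraries and 0.320, 1.44 and 2.03 CPM with hnRNP H1. It was called higher (adjusted p = 0.00784 in the edgeR test), and its pooled level was at least 17.2-fold higher with hnRNP H1. The 2876-base Hnrnpu entry had 0.0682, 0.930 and 0.0622 CPM in FLAG RIP against 28.0, 14.1 and 9.05 CPM with hnRNP H1, a log2 fold change of 5.34 ± 1.31 (adjusted p = 0.00366). In Input, Hnrnpl was at 0.734, 1.23 and 0.802 CPM and the 2876-base Hnrnpu entry at 2.57, 7.19 and 10.4 CPM. For both entries the Input libraries overlapped the hnRNP H1 libraries and lay above all FLAG libraries. These rises are therefore relative to FLAG RIP. Both are scarce entries, at or below 28.0 CPM in the libraries named here.

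Among the entries that fell, Hnrnpul1 was at 699, 469 and 606 CPM in FLAG RIP, above all the hnRNP H1 and hnRNP F libraries, with log2 fold changes of -2.21 ± 0.30 (edgeR adjusted p = 2.34e-05) and -2.01 ± 0.30 (adjusted p = 8.01e-05). Khdrbs3, a tissue-restricted relative of Sam68, was at 131, 31.6 and 40.4 CPM in FLAG RIP, 11.4, 6.79 and 15.1 CPM with hnRNP H1 and 13.1, 4.68 and 10.2 CPM with hnRNP F. Its log2 fold changes were -2.61 ± 0.73 and -2.85 ± 0.73 (adjusted p = 0.00824 and 0.00635). FLAG RIP 1 was the highest control library, and leaving it out ended the Khdrbs3 call with hnRNP H1 (adjusted p = 0.0598). The 1699-base Hnrnpdl entry was no longer called with hnRNP F without FLAG RIP 3 (0.0667), hnRNP F RIP 1 (0.0517) or hnRNP F RIP 3 (0.0771). With hnRNP H1, 3, 4 and 4 entries fell without FLAG RIP 3, without hnRNP H1 RIP 2 and without number 3 of that group. Of all transcripts, 2631 of 13363, 2055 of 13365 and 2100 of 13364 then fell.

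Hnrnpll, Srsf3 and Srsf7 fell in all 4 comparisons with FLAG RIP, and no entry rose in all 4. These comparisons share the FLAG libraries, and how many of all transcripts fell or rose in all 4 was not counted. Hnrnpll codes for a relative of hnRNP L known for regulating CD45 splicing in T cells, and Srsf3 and Srsf7 code for small SR proteins that act in mRNA export. Hnrnpll was at 84.7, 57.5 and 120 CPM in FLAG RIP, 19.4, 35.4 and 15.1 CPM in Input and 9.03 to 37.3 CPM in the 12 specific RIP libraries. All FLAG libraries were thus above all others. Srsf7 was at 52.4, 23.9 and 141 CPM in FLAG RIP, 33.9, 24.7 and 18.8 CPM in Input and 6.30 to 25.1 CPM in the specific RIPs. Srsf3 was at 288, 105 and 372 CPM in FLAG RIP, 126, 119 and 95.5 CPM in Input and 73.9 to 158 CPM in the specific RIPs. FLAG RIP 2 was the lowest control library for both SR genes and overlapped La/SSB RIP in both. With it as the single control library, the Srsf3 log2 fold change was 0.21 with hnRNP H1 and 0.055 with La/SSB; the control then has no replicates of its own. Leaving out 1 library also ended several of these calls: that of Srsf7 without FLAG RIP 3 (adjusted p = 0.0638 with hnRNP H1, 0.209 with hnRNP F and 0.211 with La/SSB), that of Srsf3 without FLAG RIP 3 (0.172 with hnRNP H1, 0.0592 with hnRNP K and 0.143 with La/SSB), and that of Hnrnpll with La/SSB without FLAG RIP 3 (0.0738) or La/SSB RIP 1 (0.105), 2 (0.0506) or 3 (0.0872).

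With hnRNP K against FLAG RIP, 20 entries fell and 2 rose in edgeR's quasi-likelihood test, where 19.4% of all transcripts were lower and 14.5% higher. The members' median log2 fold change was -1.41, against -0.30 over all transcripts. Of the 18 hnRNP entries 14 fell and of the 13 SR and SR-like entries 6 fell, and the 2 that rose were the Pcbp2 entries. The 1059-base Hnrnpa2b1 entry fell by 3.83 ± 0.49 log2 units (adjusted p = 2.27e-05), and the 906-base entry was at least 17.6-fold higher in FLAG RIP. Srsf5 fell by 3.36 ± 0.36 (adjusted p = 4.74e-06) from 524, 240 and 390 CPM in FLAG RIP. The 1316-base Hnrnpdl entry was at 13.8, 9.61 and 51.0 CPM in FLAG RIP and 0.918, 2.45 and 3.94 CPM with hnRNP K, a log2 fold change of -3.28 ± 0.75 (adjusted p = 0.00286).

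Both Pcbp2 entries rose with hnRNP K against FLAG RIP. The longer was at 55.6, 53.9 and 47.6 CPM in FLAG RIP and the shorter at 4.77, 8.89 and 7.72 CPM, each below every hnRNP K library. Their log2 fold changes were 2.37 ± 0.42 (edgeR adjusted p = 0.000467) and 3.35 ± 0.64 (adjusted p = 0.000823). Without FLAG RIP 1 or without FLAG RIP 2 the number that rose was 5, where 2020 of 13367 and 2285 of 13364 transcripts rose. With FLAG RIP 2 as the single control library, the members' median log2 fold change was -0.58, against 0.095 over all transcripts.

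With La/SSB against FLAG RIP, 12 entries fell and 0 rose in edgeR's quasi-likelihood test, where 9.67% of all transcripts were lower and 9.1% higher. The members' median log2 fold change was -0.72, against -0.32 over all transcripts. With total counts as the scale, 1 was higher and 2 were lower, where 1462 of 13276 transcripts were higher, 471 were lower and the median of all was 0.075. Srsf5 was at 137, 71.8 and 86.4 CPM with La/SSB, below the FLAG libraries, with a log2 fold change of -2.00 ± 0.34 (adjusted p = 0.0016). The 1059-base Hnrnpa2b1 entry fell by 1.95 ± 0.45 log2 units (adjusted p = 0.00742). Ptbp3, of the family that represses exons by binding pyrimidine tracts, was at 26.3, 22.9 and 36.2 CPM with La/SSB and 199, 39.2 and 43.6 CPM in FLAG RIP, a log2 fold change of -1.76 ± 0.50 (adjusted p = 0.0203). FLAG RIP 1 was far above the other 2, and without it the Ptbp3 value was -0.57 (adjusted p = 0.249). Leaving out FLAG RIP 3, La/SSB RIP 1 or La/SSB RIP 2 left 5, 5 and 2 entries lower. Of all transcripts, 1097 of 13363, 498 of 13290 and 629 of 13359 were then lower. Without FLAG RIP 2, 2 entries were higher, where 1897 of 13364 transcripts were higher.

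Input gives a reference without any antibody. FLAG RIP itself differed from it: 9 entries were higher and 5 lower in edgeR's quasi-likelihood test over all 18 libraries, where 8.71% of all transcripts were higher and 7.45% lower. The 1059-base Hnrnpa2b1 entry rose by 2.31 ± 0.44 log2 units in FLAG RIP, Srsf9 by 1.95 ± 0.55, Hnrnpll by 1.90 ± 0.51 and Srsf5 by 1.48 ± 0.31. The 2876-base Hnrnpu entry had a log2 fold change of -4.04, Ptbp2, the neuronal member of its family, -2.35 and the Pcbp2 entries -2.04 and -1.31, and Hnrnpl was at least 12.4-fold higher in Input. Hnrnpul1 was at 298, 284 and 321 CPM in Input and at 469 to 699 CPM in FLAG RIP, and rose by 0.97 ± 0.26. Leaving out any Input library, FLAG RIP 1 or FLAG RIP 3 moved a count by over 1.5 times, within 3 to 12 higher and 1 to 6 lower. Of all transcripts, 434, 466 and 543 were higher and 577, 635 and 696 lower without Input 1, 2 and 3. Without FLAG RIP 1 and 3, 1086 and 1035 were higher and 957 and 842 lower. With only the libraries of the groups compared 0 entries were called, where 4 of 11801 transcripts were higher and 28 lower.

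Against Input, 14 entries were higher and 4 lower with hnRNP H1, where 13.4% of all transcripts were higher and 10.7% lower in the edgeR test. With hnRNP F 16 were higher and 3 lower, where 11.7% of all were higher and 7.22% lower. The members' median log2 fold change was 1.06 and 1.08, against -0.02 and 0.05 over all. With total counts as the scale, 13 were higher and 7 lower with hnRNP H1 and 12 and 7 with hnRNP F. Of all 13300 transcripts, 1177 were then higher and 2615 lower with hnRNP H1, and 967 and 1934 with hnRNP F. The median of all transcripts was -0.56 and -0.49. The highest with hnRNP H1 were the 1059-base Hnrnpa2b1 entry at 3.26, Khdrbs1 at 3.16 and Hnrnpul2 at 3.16 log2 units, and the lowest were the 1098-base Pcbp2 entry at -1.55, Srsf2 at -1.47 and Hnrnpul1 at -1.22. Those with hnRNP F were the 1059-base Hnrnpa2b1 entry at 3.75, the 1071-base Hnrnpa3 entry at 3.40 and Hnrnpul2 at 3.1, and the 2 Pcbp2 entries at -3.83 and -1.60 with Hnrnpul1 at -1.02. Of those named with hnRNP H1, Srsf2 lost its call without Input 1 (adjusted p = 0.0853), Input 3 (0.0557), hnRNP H1 RIP 2 (0.0877) or 3 (0.108), and the 1098-base Pcbp2 entry without any 1 Input library (0.0824, 0.0922 and 0.0901) or hnRNP H1 RIP 2 or 3 (0.136 and 0.146). Each of these libraries left 1 to 3 entries lower when left out, and Hnrnpul1 lost its call with hnRNP F without hnRNP F RIP 3 (0.0537).

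With hnRNP K against Input, 11 entries were lower and 1 higher in the edgeR test, where 6.47% of all transcripts were lower and 6.58% higher. The members' median log2 fold change was -0.90, against -0.10 over all. The lowest were Tra2b at -2.29, the 1711-base Hnrnpa1 entry at -2.26 and Srsf5 at -1.90 log2 units, with Tra2b at 58.3, 48.9 and 42.7 CPM in Input and 6.61, 14.5 and 9.37 CPM with hnRNP K. Hnrnpul1 alone was higher, by 1.24 ± 0.27 (adjusted p = 0.0035), and lost its call scaled by total counts (0.55, adjusted p = 0.162). The Pcbp2 entries, 115, 151 and 124 CPM and 28.6, 30.0 and 29.8 CPM in Input, lay below all hnRNP K libraries but were not called by edgeR, while both were called higher by DESeq2 (adjusted p = 0.0407 and 0.0164) and by edgeR when the libraries of these 2 groups alone were fitted (0.00465 and 0.00271). The number lower was 6 without Input 2 and 5 without Input 3, hnRNP K RIP 1 or hnRNP K RIP 3. Of all transcripts, 509 of 13382, 500 of 13382, 344 of 13372 and 457 of 13374 were then lower. It was 22 with total counts as the scale, where 2173 of 13300 transcripts were lower, 306 were higher and the median of all was -0.77.

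With La/SSB against Input, 0 entries were called by edgeR, where 0.0226% of all transcripts were higher and 0.015% lower. At an unadjusted p under 0.05 there were 7 members, beside 1059 of all 13300 transcripts. DESeq2 called 1 member lower, the 1098-base Pcbp2 entry (log2 fold change -1.64, adjusted p = 0.0371), where it called 33 of 12714 transcripts higher and 44 lower.

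The hnRNP K and La/SSB RIPs were compared directly. Relative to La/SSB, 12 entries fell and 5 rose with hnRNP K in the edgeR test, where 5.35% of all transcripts were lower and 7.26% higher. The members' median was -0.17 log2 units, against -0.15 over all transcripts. Those that rose had log2 fold changes of 1.17 for Hnrnpul1, 1.57 for Elavl1, 1.90 for Srsf2, 2.37 for the 1465-base and 2.92 for the 1098-base Pcbp2 entry. The hnRNP K libraries are the same as in the comparison with hnRNP H1 and hnRNP F. The lowest were the 1316-base Hnrnpdl entry at -2.51 and Tra2a at -2.40, and the 906-base Hnrnpa2b1 entry, with 0 reads in hnRNP K RIP, was at least 8.56-fold higher in La/SSB RIP. With total counts as the scale 2 rose and 20 fell, where 288 of 13276 transcripts were higher, 2743 were lower and the median of all was -1.04. With the trend over transcript length removed 5 rose and 7 fell, where 910 of all were higher and 536 lower. Leaving out 1 library gave 3 to 5 higher and 4 to 9 lower members. There were 4 lower without hnRNP K RIP 1, 7 without 2 and 5 without 3. Without La/SSB RIP 1 or 3, 6 were lower, and without La/SSB RIP 1 or 2, 3 were higher. Of all transcripts, 710 were lower with every library, and 277, 366 and 321 without hnRNP K RIP 1, 2 and 3. Without La/SSB RIP 1 and 3, 468 and 419 were lower, and without La/SSB RIP 1 and 2, 631 and 604 were higher, against 964 with every library. Of those named, Hnrnpdl lost its call without hnRNP K RIP 1 (0.138), 2 (0.0922) or La/SSB RIP 3 (0.131), Elavl1 without hnRNP K RIP 1 (0.0835), La/SSB RIP 1 (0.0578) or 3 (0.0558), Srsf2 without La/SSB RIP 1 (0.0708) or 2 (0.0672), and Hnrnpul1 without La/SSB RIP 2 (0.063).

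Between hnRNP H1 and hnRNP F, edgeR's quasi-likelihood test called 0 members and 0% of all transcripts. At an unadjusted p under 0.05 there were 2 members and 1339 transcripts in all. DESeq2 called 1 member, the 1098-base Pcbp2 entry, which was higher with hnRNP H1 by 2.27 log2 units (adjusted p = 0.0181), where it called 19 of 12882 transcripts higher and 62 lower. A joint test of any difference among the 4 specific RIPs called 26 of the 41 entries, where 33.3% of all transcripts were called.

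A list of other RNA-binding protein genes, not members, gave 87 entries of 68 genes. Against FLAG RIP, 24 rose and 10 fell with hnRNP H1, 17 rose and 8 fell with hnRNP F, 12 rose and 20 fell with hnRNP K, and 5 rose and 14 fell with La/SSB in the edgeR test. Over all transcripts 18.3, 16.6, 14.5 and 9.1% rose and 21.2, 17.1, 19.4 and 9.67% fell in the same order. In hnRNP K RIP against the mean of hnRNP H1 and hnRNP F, 34 fell and 15 rose, with a median of -1.18 log2 units. Of all transcripts 17.5% fell and 16.6% rose there, with a median of -0.17. With hnRNP H1 the highest against FLAG RIP were Matr3, coding for matrin 3, at 4.02, Son, coding for a splicing cofactor, at 3.85 and Tnpo3, coding for the importer of SR proteins, which had 0 reads in FLAG RIP. The lowest were Celf4 at -2.86, Nova1 at -2.43 and Mbnl2 at -1.75, all 3 coding for regulators of alternative splicing. With hnRNP F they were Son at 3.77, Raly at 3.68 and Msi2 at 2.72, and Celf4 at -4.37, Clk2 at -4.02 and Ybx3 at -1.99. With hnRNP K they were Pabpc1, coding for poly(A)-binding protein, at 2.75, Srrm1 at 2.71 and Igf2bp2 at 2.50, and the 2 Rbm5 entries at -4.49 and -3.60 with Celf4 at -3.66. With La/SSB they were Tnpo3, Ddx17 at 3.72 and Pabpc1 at 1.78, and Pum2 at -2.67, Clk4 at -2.51 and Rbm5 at -2.22.

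Genes with 2 entries can be read as a check on each other, although both entries may share reads. Both entries of Hnrnpa1, Hnrnpa2b1, Hnrnpa3, Hnrnpdl and Pcbp2 were called in the same direction in the comparison of hnRNP K with hnRNP H1 and hnRNP F. For Hnrnpu the 3344-base entry fell by 3.095 ± 0.34 log2 units, and the 2876-base entry had a value of -2.29 ± 1.04 (edgeR adjusted p = 0.0967).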

How the data were processed

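The deposited table holds, per transcript, read counts of 18 libraries; per the file headers and values, the authors deposited each count with 1 added. FPKM values per library, log2 fold changes and FDR p-values of 9 group pairs are the authors' deposited values; the log2 and p-values were only compared. CASAVA 1.8.2 and edgeR are named in the submitters' processing notes. For aligner, counter and genome build: not given in the sources used here. Counts were tested as deposited, with the added 1 kept. They were tested with edgeR 4.0.16 (limma 3.58.1, R 4.3.3) by the two-sided quasi-likelihood F-test, TMM scaling and filterByExpr (minimum count 10, total 15). Benjamini-Hochberg adjustment was over all transcripts (call: adjusted p under 0.05). Comparisons between RIPs used 15 libraries (13276 transcripts, 10 residual degrees of freedom), those with Input 18 (13300, 12). All 41 members passed the filter. CPM are TMM-scaled after subtracting 1, unlike the counts tested. With 1 subtracted before the test, 596 of 13263 transcripts were higher in FLAG RIP against Input, against 1159 of 13300 in the main test. Bounds set a group at 0 to 3 reads over the group. DESeq2 1.42.0 was an alternative. The code was tested on simulated data. In La/SSB RIP 1 every entry has at least 10 reads, so the table may have been filtered on that library.

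Members and lists were chosen with earlier results of these data known. Named were the up to 4 highest and 4 lowest called members without overlap in each comparison with FLAG RIP and in hnRNP K against hnRNP H1 and hnRNP F, those called alike in all 4, the 6 highest Input FPKM, and the 3 highest and lowest called elsewhere. Other members named with values (Hnrnph2, Hnrnpul2, Hnrnpa1, Hnrnpr, Tra2a, Srsf6, Srsf9, Elavl1, Pcbp4 and the like) were chosen after their values were seen. Promoters are from RefSeq, GRCr8, whose build need not be the authors'.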

Additional observations from a re-analysis of the deposited data

How the results depend on the processing

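Over 27 alternatives, 2714 recomputed values of 182 called member results gave 2328 with the same call, 383 without it and 3 with a changed sign. The 3 were Srsf3 when FLAG RIP 2 was the single control library: 0.21 in hnRNP H1 and 0.0546 in La/SSB against FLAG RIP, and -0.13 in FLAG RIP against Input. FLAG RIP varied most, depth limits entries near 3 reads, and the cause of these changes was not tested. The comparison of hnRNP K with hnRNP H1 and hnRNP F gave 5 higher and 19 to 23 lower members with 1 library left out. Of all transcripts, 1643 to 2361 were then higher and 1578 to 2201 lower. In the edgeR test the 2876-base Hnrnpu entry was gained without hnRNP F RIP 3 (adjusted p = 0.0236), and Hnrnpm, Tra2b and Ptbp3 were lost without hnRNP K RIP 1.

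Counts that moved by over 1.5 times were as follows. Scaled by total counts, higher or lower members became 5 higher in FLAG RIP against Input, 1 higher and 2 lower in La/SSB against FLAG RIP, 7 lower in hnRNP F and 7 lower in hnRNP H1 against Input, 0 higher and 22 lower in hnRNP K against Input, and 2 higher and 20 lower in hnRNP K against La/SSB. Over all transcripts the same counts were 633 higher, 1462 higher and 471 lower, and 1934 and 2615 lower. For hnRNP K they were 306 higher and 2173 lower against Input, and 288 higher and 2743 lower against La/SSB. Without the length trend, 6 were lower in hnRNP K against Input and 7 against La/SSB, where 725 of 13300 and 536 of 13276 transcripts were lower. With 1 subtracted from every count, 6 were lower in La/SSB and 4 higher in hnRNP K against FLAG RIP. Of all 13227 transcripts, 709 were lower in La/SSB and 2073 higher in hnRNP K there, against 1284 and 1921 of 13276 in the main test. When FLAG RIP 2 was the single control library, assumed to vary like the other groups, fewer transcripts passed overall (in La/SSB against FLAG RIP 91 lower, against 1284 with all 3 FLAG libraries). Then 1 member was higher and 0 lower in FLAG RIP against Input, and 0 (La/SSB), 2 (hnRNP F), 1 (hnRNP H1) and 13 (hnRNP K) were lower against FLAG RIP. With only the libraries of the groups compared, FLAG RIP against Input gave 0 and 0, where 4 of 11801 transcripts were higher and 28 lower. Those lower against FLAG RIP were 2 (La/SSB), 2 (hnRNP F) and 3 (hnRNP H1). Among all transcripts, 202 of 12782, 667 of 11679 and 1388 of 12087 were lower in the same order. With hnRNP K, 6 were higher against Input and 8 against La/SSB, where 2196 of 12265 and 2292 of 12964 transcripts were higher. DESeq2 gave 1 lower in La/SSB against Input and 1 higher in hnRNP H1 against hnRNP F. With hnRNP K it gave 4 higher (FLAG RIP) and 3 higher (Input), where 2317 of 13140 and 1290 of 12969 transcripts were higher.

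With 1 library left out, the ranges of higher and lower were 3 to 12 and 1 to 6 for FLAG RIP against Input, 13 to 15 and 1 to 3 for hnRNP H1 against Input, 13 to 15 and 2 to 3 for hnRNP F against Input, 1 and 5 to 8 for hnRNP K against Input, 10 to 15 and 3 to 7 for hnRNP H1, 13 to 17 and 4 to 8 for hnRNP F, 2 to 5 and 18 to 21 for hnRNP K, 0 to 2 and 2 to 13 for La/SSB against FLAG RIP, and 3 to 5 and 4 to 9 for hnRNP K against La/SSB; the joint test gave 23 to 27. The labels do not say what a replicate number stands for, so the main tests did not treat the numbers as pairs. Of 45 same-numbered pairs, 11 had a correlation over 0.1. As a hint from the data, not the design, all 45 were above 0 (median 0.07, against -0.045 for other pairs), and each of the 18 libraries correlated best, on average, with its own number in the other groups. The skeletal muscle genes were highest in number 1 and lowest in number 2 of every group. Their shares were 0.119, 0.0056 and 0.0503% in Input and 0.155, 0.0034 and 0.0627% in FLAG RIP. Same-numbered libraries may thus share a preparation, which the main tests leave out. With the replicate block the counts were 5 and 22 for hnRNP K against hnRNP H1 and hnRNP F, 13 and 5 for hnRNP H1, 16 and 6 for hnRNP F, 2 and 20 for hnRNP K, 0 and 12 for La/SSB against FLAG RIP, and 8 and 5 for FLAG RIP against Input. Calls that the block ended were Srsf3 (adjusted p = 0.0511) and Srsf4 (0.0514) in hnRNP H1, Hnrnpm (0.127) in hnRNP K and Srsf2 (0.0597) in La/SSB against FLAG RIP, and Srsf3 and Srsf4 (both 0.0536) in FLAG RIP against Input.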
